A study of Mus musculus with 8 samples.

Results

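The CXCR3 ligands Cxcl9, Cxcl10 and Cxcl11, the CC chemokines Ccl2, Ccl7, Ccl12, Ccl3 and Ccl4, and the chemokine receptor gene Ccr2 were followed in whole lung RNA of mice with and without intratracheal lipopolysaccharide (LPS). They were taken by name, from probe sets that match exactly 1 gene symbol. Each of the 9 genes had 1 such probe set, so they make up 9 of 21218 probe sets and 9 of 18820 genes that could be named. The study, of p52, the processed form of the NF-kB2 protein p100, measured 8 Affymetrix Mouse Gene ST arrays in 4 groups of 2. Each array held RNA pooled from the lungs of 3 mice. The 2 pools of a group are separate samples of different mice, and p-values therefore measure the spread between pools and not between mice. The mice were FVB, 8 to 12 weeks old, and of both sexes in equal parts. All of them, controls included, drank 2 g/L doxycycline (dox) with 2% sucrose for 1 week. The WT dox and CCSP-p52 dox groups received no LPS, and the WT LPS and CCSP-p52 LPS groups received LPS into the trachea 48 h before the lungs were taken. CCSP-p52 mice carry CCSP-rtTA and CCSP-tTS/(tet-O)7-FLAG-p52, which together let dox switch on FLAG-tagged p52 in the airway epithelium, under the promoter of a club cell protein. WT mice were littermates without the transgene. The transgene is thus active in a part of the epithelium only, while the arrays measured RNA of the whole lung.

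Chemokines are secreted proteins that direct leukocytes by way of G protein-coupled receptors. CXCL9, CXCL10 and CXCL11 are induced by interferons, in particular interferon gamma, and attract activated T cells and NK cells through the receptor CXCR3. CCL2, CCL7 and CCL12 bind CCR2, which guides inflammatory monocytes out of the bone marrow and into tissue. CCL3 binds CCR1, and both CCL3 and CCL4 attract monocytes, macrophages, T cells and other leukocytes. In the lung, bacterial products raise these chemokines in macrophages, epithelial cells and recruited leukocytes.

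The stretches of 250 bases just before the RefSeq start site are shown for the 5 members in the reference table used here, Cxcl9, Cxcl10, Ccl12, Ccl3 and Ccr2, since NF-kB and interferon-regulated factors are the known regulators of several of these genes. They are reference sequence of build GRCm38.p6, which is not of the FVB strain, and are written 5' to 3' on the strand of the gene. Capitals mark matches, on either strand, to the NF-kB consensus, to the core of an interferon-stimulated response element (GAAANNGAA), to a gamma-activated site (TTCNNNGAA), to an AP-1 site (TGANTCA) and to a TATA box (TATAAA). The windows lie at chr5:92328080-92328329 (minus strand), chr5:92348890-92349139 (minus strand), chr11:82101595-82101844 (plus strand), chr11:83649379-83649628 (minus strand) and chr9:124101933-124102182 (plus strand).
Cxcl9: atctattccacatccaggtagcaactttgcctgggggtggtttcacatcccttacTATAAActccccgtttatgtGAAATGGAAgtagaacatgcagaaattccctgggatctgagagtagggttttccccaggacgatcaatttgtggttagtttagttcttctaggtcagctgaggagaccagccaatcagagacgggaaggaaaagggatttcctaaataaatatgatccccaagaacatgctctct
Cxcl10: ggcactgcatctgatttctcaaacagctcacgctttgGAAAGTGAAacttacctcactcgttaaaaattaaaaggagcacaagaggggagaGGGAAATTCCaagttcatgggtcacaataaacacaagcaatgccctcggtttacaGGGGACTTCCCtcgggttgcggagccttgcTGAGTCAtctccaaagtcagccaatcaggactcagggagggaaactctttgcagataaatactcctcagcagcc
Ccl12: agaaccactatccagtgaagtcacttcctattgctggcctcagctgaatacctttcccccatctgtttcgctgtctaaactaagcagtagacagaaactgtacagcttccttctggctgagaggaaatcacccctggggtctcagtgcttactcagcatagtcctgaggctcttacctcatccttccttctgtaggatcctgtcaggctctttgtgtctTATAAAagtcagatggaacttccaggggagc
Ccl3: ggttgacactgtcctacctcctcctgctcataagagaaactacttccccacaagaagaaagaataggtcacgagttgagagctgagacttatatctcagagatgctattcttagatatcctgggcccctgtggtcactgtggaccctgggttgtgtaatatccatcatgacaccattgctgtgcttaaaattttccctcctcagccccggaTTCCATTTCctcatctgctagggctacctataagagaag
Ccr2: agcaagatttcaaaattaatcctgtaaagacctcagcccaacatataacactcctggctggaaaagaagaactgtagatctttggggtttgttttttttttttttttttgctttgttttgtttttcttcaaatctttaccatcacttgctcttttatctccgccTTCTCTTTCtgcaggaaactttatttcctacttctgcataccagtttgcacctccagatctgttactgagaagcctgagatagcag
Cxcl10 had 3 matches to the NF-kB consensus, of which 2 overlap each other, with 1 interferon-stimulated response element core and 1 AP-1 site. In Cxcl9, 1 element core and 1 TATA box letter match were found, and in Ccl12 only a TATA box, which ends 26 bases before the start. Ccl3 and Ccr2 each had 1 element core, on the opposite strand. None of the 5 windows held the gamma-activated site. Among 32851 windows of the same length before mouse genes, the NF-kB consensus was in 7.25%, the element core in 7.13%, the gamma-activated site in 7.02%, the AP-1 site in 6.75% and the TATA box in 12.4%. A match is a description of these letters, not evidence of binding.

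Values are log2 signals after the Robust Multichip Average (RMA), and a difference of 1 is a 2-fold difference. The medians of the 8 arrays lay between 7.48 and 7.54. The 2 pools of a group correlated across probe sets at 0.996 in both dox groups, at 0.985 in WT LPS and at 0.981 in CCSP-p52 LPS. WT LPS pool 2 stood apart: 8 genes of striated muscle and squamous epithelium had a mean log2 value of 11.20 there and of 6.97 to 7.34 on the other 7 arrays. The main results that use this pool are therefore also given without it. The mean log2 value of 8 alveolar epithelial genes was 11.95 to 12.57 on all arrays. Nfkb2, the gene of the transgene product, was higher on both CCSP-p52 dox arrays (10.20 and 10.33) than on both WT dox arrays (9.51 and 9.58). The logFC was 0.72, with a standard error of 0.23 and an unadjusted p of 0.0186 in limma, and its adjusted p was 1.00. Nfkb2 thus met the cut-off for p52 defined below, as 0.556% of probe sets did as higher. Its logFC with LPS was 0.21, which missed that cut-off. With LPS, Nfkb2 read 10.83 and 10.56 in WT and 11.28 and 10.53 in CCSP-p52, so that the genotypes overlapped there. In whole lung, more cells of a type and more RNA per cell cannot be told apart.

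LPS raised every one of the 9 genes. With p52 and LPS as additive factors over all 8 arrays, 9 of 9 passed an adjusted p under 0.05 as higher, where 13.5% of all probe sets tested passed as higher and 20.2% as lower. The median logFC of the 9 was 4.18, against 0.0073 over all probe sets. Each of 8 members had all 4 LPS arrays above all 4 dox arrays, a separation found in 15.3% of probe sets, and Ccr2 missed it by a narrow margin. The plot of the members by array shows both features.

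**Figure D1:**
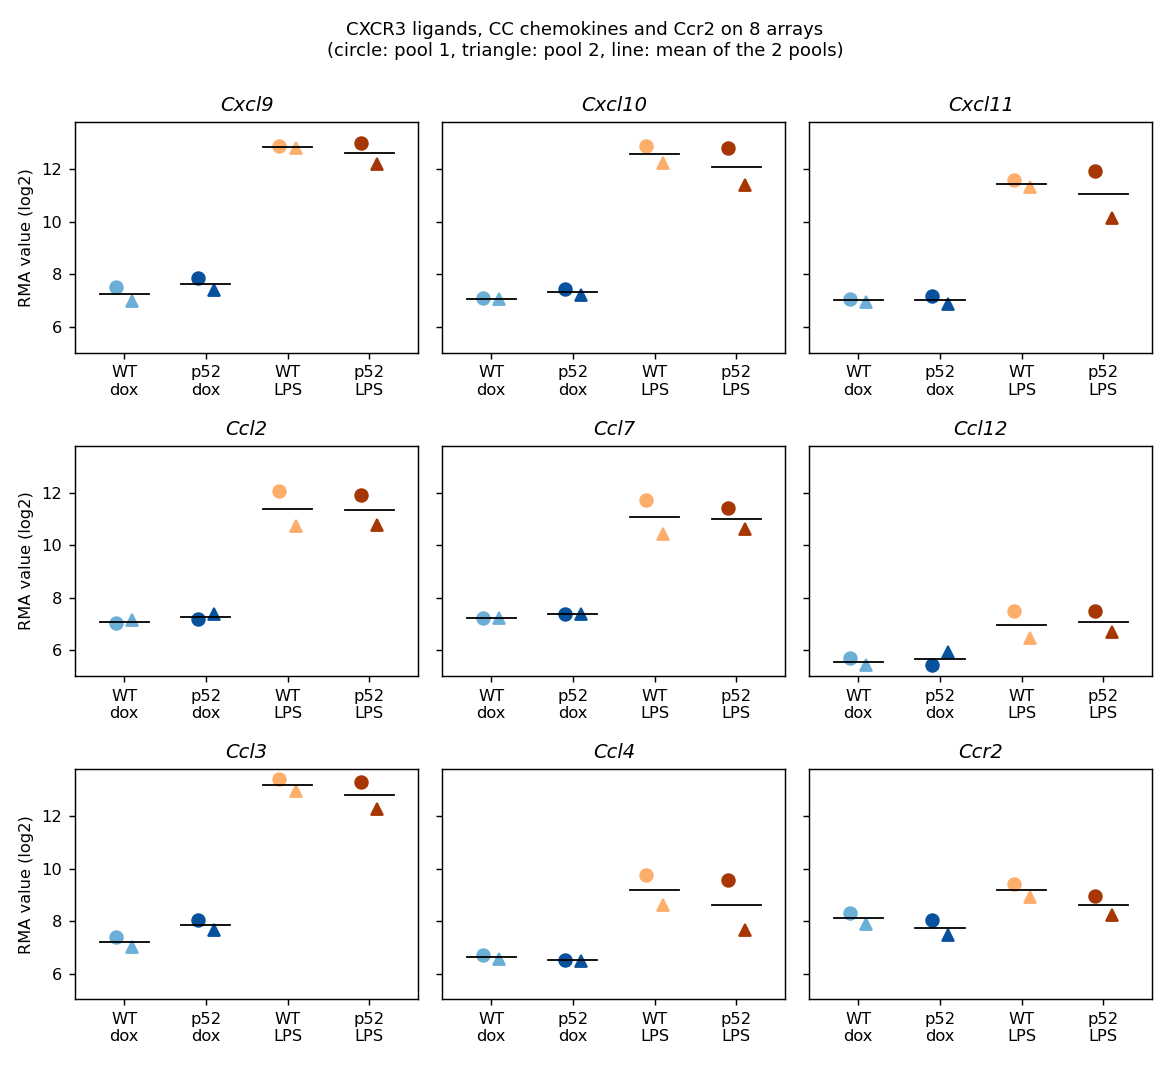
RMA values (log2, vertical axis) of the 9 genes on the 8 arrays, by group, with pool 1 as circles, pool 2 as triangles and the mean of the 2 pools as a line; p52 stands for CCSP-p52. In every panel but that of Ccr2 the lowest LPS array lies above the highest dox array, and in both LPS groups pool 1 lies above pool 2 for all 9 genes.

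The CXCR3 ligands rose by 4.23 to 5.29 on the log2 scale. Cxcl9 read 7.52 and 6.97 in WT dox, 7.84 and 7.39 in CCSP-p52 dox, 12.88 and 12.79 in WT LPS, and 13.01 and 12.21 in CCSP-p52 LPS. The LPS values were far above all dox values and close to each other. Its logFC of 5.29 (standard error 0.22, 39.1-fold, adjusted p = 2.62e-05) was the 6th highest of all probe sets. Cxcl10, the ligand also known as IP-10, read 7.08 and 7.04, then 7.43 and 7.20 without LPS, and 12.89 and 12.23 in WT LPS against 12.80 and 11.38 in CCSP-p52 LPS. Pool 2 of CCSP-p52 LPS was the lowest of the 4 LPS arrays, yet far above the dox arrays. The logFC of Cxcl10 was 5.14 (standard error 0.31, 35.3-fold, adjusted p = 7.16e-05), and it ranked 7. Cxcl11 read 7.06, 6.95, 7.16 and 6.87 on the dox arrays in the same order, 11.58 and 11.31 in WT LPS, and 11.94 and 10.13 in CCSP-p52 LPS. Its CCSP-p52 LPS pools enclosed both WT LPS pools. Cxcl11 had a logFC of 4.23 (standard error 0.34, 18.8-fold, adjusted p = 0.000163) and ranked 18.

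Among the CCR2 ligands, Ccl2 and Ccl7 rose strongly and Ccl12 less. Ccl2, which encodes MCP-1, read 7.02 and 7.13 in WT dox, 7.20 and 7.36 in CCSP-p52 dox, 12.05 and 10.72 in WT LPS and 11.90 and 10.78 in CCSP-p52 LPS. On the LPS arrays the values followed the pool number, with both first pools near 12 and both second pools near 11. The logFC was 4.18 (standard error 0.32, 18.2-fold, adjusted p = 0.000131). Ccl7, which encodes MCP-3, read 7.24 and 7.23 in WT dox, 7.38 and 7.39 in CCSP-p52 dox, 11.70 and 10.40 in WT LPS and 11.42 and 10.60 in CCSP-p52 LPS. It showed the same order as Ccl2 on the LPS arrays, and its 2 pools were nearly equal within each dox group. Its logFC was 3.72 (standard error 0.28, 13.2-fold, adjusted p = 0.000127). Ccl12, which encodes MCP-5, was read at 5.71 and 5.42 in WT dox, 5.42 and 5.94 in CCSP-p52 dox, 7.48 and 6.45 in WT LPS, and 7.48 and 6.68 in CCSP-p52 LPS. The gap between its lowest LPS array and its highest dox array was 0.51. Ccl12 had a logFC of 1.40 (standard error 0.26, 2.63-fold, adjusted p = 0.00441).

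Ccl3 had the largest LPS effect of the 9 genes, and Ccl4, its neighbour in the genome, a smaller one. Ccl3, the gene of MIP-1 alpha, read 7.38 and 7.02 in WT dox, 8.04 and 7.65 in CCSP-p52 dox, 13.39 and 12.96 in WT LPS and 13.28 and 12.28 in CCSP-p52 LPS. Its 4 LPS arrays were again well separated from the dox arrays. Its logFC of 5.45 (standard error 0.28, 43.8-fold, adjusted p = 3.84e-05) ranked 4 among all probe sets. Ccl4, the gene of MIP-1 beta, read 6.71 and 6.57 in WT dox, 6.53 and 6.50 in CCSP-p52 dox, 9.76 and 8.60 in WT LPS, and 9.56 and 7.65 in CCSP-p52 LPS. The 4 dox arrays differed by little and the 4 LPS arrays by much. The logFC of Ccl4 was 2.32 (standard error 0.40, 4.98-fold, adjusted p = 0.0036). Probe sequences were not used here, so cross-hybridisation between related chemokines was not examined.

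Ccr2, the receptor of CCL2, CCL7 and CCL12, rose least. It read 8.32 and 7.89 in WT dox, 8.04 and 7.47 in CCSP-p52 dox, 9.41 and 8.92 in WT LPS and 8.95 and 8.25 in CCSP-p52 LPS. The lowest LPS array, CCSP-p52 LPS pool 2 at 8.25, fell just under the highest dox array, WT dox pool 1 at 8.32. The logFC was 0.95 (standard error 0.21, 1.94-fold, adjusted p = 0.00887). Without WT LPS pool 2 it was 1.03 (standard error 0.23), and the LPS effect of all 9 genes still passed, with logFC from 1.03 for Ccr2 to 5.44 for Ccl3. The adjusted p of Ccr2 was 0.0162 in that fit, and 0.0002 to 0.0325 over 17 alternative fits. Markers of monocytes and recruited macrophages moved with Ccr2: 10 of 10 measured rose (median logFC 2.24), and their mean log2 value was 8.37 to 8.65 on the dox arrays and 10.30 to 11.12 on the LPS arrays. Their part in the Ccr2 result was not tested.

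In the model with a mean for each group, the LPS effect could be read within each genotype. In WT mice 8 of 9 genes passed as higher (7.98% of all probe sets passed as higher and 13.7% as lower), with logFC from 1.40 for Ccl12 to 5.97 for Ccl3. Ccr2 had a logFC of 1.06 (standard error 0.31, adjusted p = 0.0514). Without WT LPS pool 2 the same count of 8 passed (4.70% as higher). Ccl12 and Ccl4 no longer passed in some of the fits that left out 1 array, and Ccr2 passed in others. Leaving out WT LPS pool 1 or pool 2 gave logFC of 0.89 and 1.91 for Ccl12. The same fits gave 1.96 and 3.12 for Ccl4, and 0.82 and 1.31 for Ccr2. In CCSP-p52 mice 6 of 9 passed (4.31% as higher and 5.17% as lower), with logFC from 3.63 for Ccl7 to 4.99 for Cxcl9. Ccl12 at 1.39 (adjusted p = 0.0711), Ccl4 at 2.09 (adjusted p = 0.0769) and Ccr2 at 0.85 (adjusted p = 0.128) did not pass. The pool number was also used as a replicate block, a pairing taken from these data only. With it, 9 of 9 genes passed in each genotype, against 11.0% of probe sets as higher in WT and 7.49% in CCSP-p52. In that fit the adjusted p of Ccr2 was 0.00247 in WT, and in CCSP-p52 it was 0.0487 for Ccl12, 0.0336 for Ccl4 and 0.00609 for Ccr2. Over all alternative fits it ran from 0.00247 to 0.243 for Ccr2 in WT, and in CCSP-p52 from 0.00241 to 0.286 for Ccl12, from 7.84e-05 to 0.279 for Ccl4 and from 0.00609 to 0.472 for Ccr2. The sizes in CCSP-p52 mice depended on single pools. Leaving out CCSP-p52 LPS pool 1 or pool 2 gave logFC of 0.99 and 1.79 for Ccl12 and 1.14 and 3.05 for Ccl4. The same fits gave 0.50 and 1.20 for Ccr2. Leaving out CCSP-p52 dox pool 1 or pool 2 gave 1.13 and 0.56 for Ccr2, and 5.22 and 4.76 for Cxcl9.

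**Figure D2:**
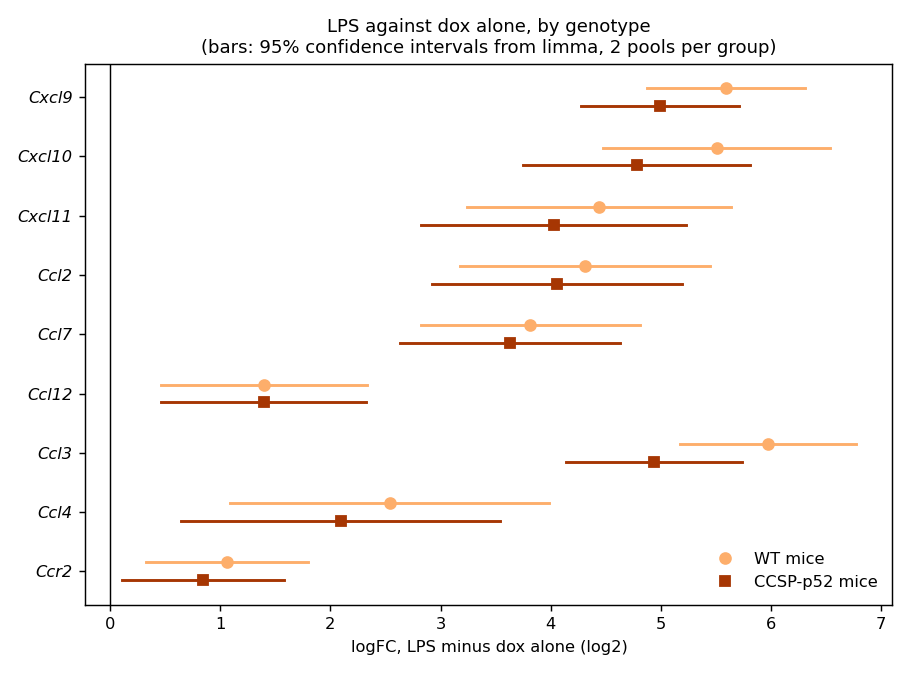
LPS effect (logFC, LPS minus dox alone, log2) of the 9 genes in WT mice (circles) and CCSP-p52 mice (squares), with 95% confidence intervals from limma. All 18 points lie above 0, and for each gene the intervals of the 2 genotypes overlap.

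Whether airway p52 alone moved these chemokines was asked in the mice without LPS. None of the 9 genes met the cut-off used here, a logFC of at least 0.41 in size with an unadjusted p of at most 0.05. The size of 0.41 is the study's, which used it for increases. Its methods describe a model over all 8 arrays with p52 and LPS as factors. The study tabulated NFKB2 at a logFC of 0.720. Here Nfkb2 was at 0.720 without LPS and at 0.47 over both LPS states, so the study's values may be those without LPS. The p limit, the use in both directions and the use for each p52 comparison were choices made here. Of all probe sets 0.556% met this cut-off as higher and 0.160% as lower. No member had an unadjusted p under 0.05 in limma. By an adjusted p under 0.05, 0 of 21218 probe sets passed (361 at an unadjusted p under 0.05), which is 0%. Values were higher in CCSP-p52 dox than in WT dox for 7 of 9 genes, with a median logFC of 0.15 against -0.0039 over all probe sets. Ccl3 had the largest difference, 7.38 and 7.02 against 8.04 and 7.65, a logFC of 0.65 (standard error 0.34, 95% interval -0.15 to 1.44, adjusted p = 1.00). With the replicate block, Ccl3 met the cut-off as higher, as did 0.674% of probe sets, and its adjusted p was 1.00 there and 0.825 to 1 over all alternatives. Leaving out 1 CCSP-p52 LPS pool kept the logFC of Ccl3 as it was, since no LPS array enters it, and changed only the spread used in its test. Cxcl9 had a logFC of 0.37 (standard error 0.30, interval -0.35 to 1.09), which ran from 0.0928 without WT dox pool 2 to 0.65 without WT dox pool 1. Cxcl10, Ccl2, Ccl7 and Ccl3 had both CCSP-p52 dox pools above both WT dox pools, 4 of 9 members against 16.1% of probe sets. The values of Cxcl11 were nearly the same in both genotypes (logFC 0.01, interval -1.19 to 1.21). Ccr2 read lower in CCSP-p52 dox, at -0.35 (standard error 0.31, interval -1.08 to 0.39), and at -0.63 and -0.0662 when the first or the second CCSP-p52 dox pool was left out.

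After LPS, the comparison of genotypes leaned the other way, again without a member at the cut-off. As higher 1.09% of probe sets met it and as lower 1.09%, and by an adjusted p 0% passed (0 of 21218, with 1480 at an unadjusted p under 0.05). The logFC of CCSP-p52 LPS against WT LPS was negative for 8 of 9 genes, with a median of -0.39 against 0.0064 over all probe sets. That lean did not hold without CCSP-p52 LPS pool 2, where the median was 0.37 and 7 of the 8 genes turned positive, all but Ccr2, while without CCSP-p52 LPS pool 1 it was -0.89. Ccl4 was at -0.58 (standard error 0.61, interval -2.02 to 0.87) and Ccr2 at -0.57 (standard error 0.31, interval -1.30 to 0.17, adjusted p = 0.732). Cxcl10 at -0.47 (standard error 0.43), Cxcl11 at -0.41 (standard error 0.51) and Ccl3 at -0.39 (standard error 0.34) each had an interval that included 0. Ccl2 and Ccl7 differed by -0.05 and -0.04, with intervals from -1.19 to 1.09 and from -1.04 to 0.96. Ccl12 was the exception in sign, at 0.11 (standard error 0.39). For no member did both CCSP-p52 LPS pools lie above both WT LPS pools or below both, as 15.8% of probe sets did in each direction. With the replicate block, Ccr2 met the cut-off as lower (1.32% of probe sets as lower), with an adjusted p of 0.538, and 0.153 to 0.998 over all alternatives. Without WT LPS pool 2 no member met it, but values moved: Ccl2 to -0.71 (standard error 0.42), Ccl7 to -0.69 (standard error 0.31), Ccl4 to -1.16 (standard error 0.69), Ccr2 to -0.81 (standard error 0.37) and Ccl12 to -0.40 (standard error 0.37).

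Calls at the cut-off after LPS changed with the CCSP-p52 LPS pools, while Ccl2, Ccl7 and Ccl12 moved furthest, among the fits that left out 1 array, with the WT LPS pools. Without CCSP-p52 LPS pool 1, 5 of 9 members met the cut-off as lower in CCSP-p52 (6.12% of probe sets did). They were Cxcl10 at -1.18, Cxcl11 at -1.31, Ccl3 at -0.89, Ccl4 at -1.53 and Ccr2 at -0.91. In that fit Cxcl11 had an adjusted p of 0.0447 in limma, the only adjusted p under 0.05 of a member for p52 in any fit run here. Without CCSP-p52 LPS pool 2, none did, and Cxcl11 met it as higher, at 0.49 (1.85% of probe sets did). In both fits the lone pool was taken to vary like the other groups.

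**Figure D3:**
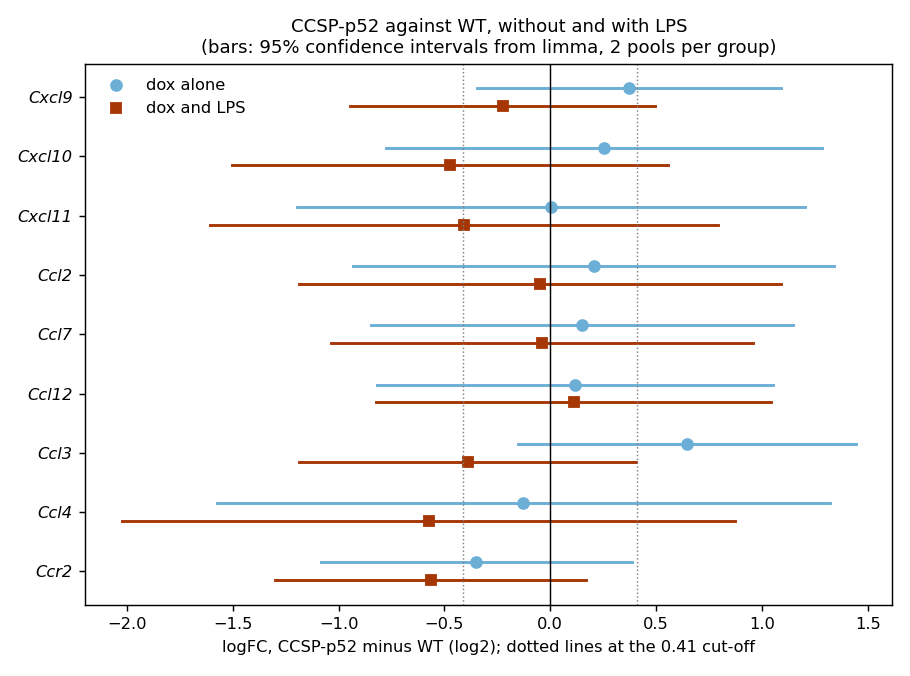
Difference of CCSP-p52 from WT (logFC, log2) for the 9 genes on dox alone (circles) and on dox with LPS (squares), with 95% confidence intervals from limma and dotted lines at the cut-off of 0.41. All 18 intervals include 0, the circles lie above 0 for 7 genes and the squares below 0 for 8.

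Over both LPS states, the additive model gave p52 effects between -0.46 for Ccr2 and 0.13 for Ccl3, with 0 of 9 members at the cut-off (0.245% of probe sets as higher, 0.0424% as lower, and 0.00471% by an adjusted p). No member had an unadjusted p under 0.05. Ccr2 came nearest (standard error 0.21, interval -0.93 to 0.02, adjusted p = 1.00), and with the replicate block it met the cut-off as lower (0.0613% of probe sets as lower), with an adjusted p of 1.00, and 0.78 to 1 over all alternatives. Its values were lower in CCSP-p52 than in WT for the same pool number in both LPS states. They were 8.04 against 8.32 and 7.47 against 7.89 on dox, and 8.95 against 9.41 and 8.25 against 8.92 with LPS. The pool number pairs arrays on the ground of these data only, so neither this match nor the block is separate support. The pools of the 2 genotypes overlapped in each state. Among the fits that left out 1 array, the logFC of the receptor gene was lowest without the first CCSP-p52 pool on dox, at -0.59. It was nearest to no difference without CCSP-p52 LPS pool 2, at -0.30. For Ccl3 the same 2 fits gave -0.05 and 0.43. Some of these fits put Ccr2 or Ccl3 at the cut-off, but the share of all probe sets there was not computed for them. Without WT LPS pool 2 the effects lay between -0.54 for Ccl4 and 0.14 for Ccl3, and none met it.

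The p52 effect with LPS minus that without LPS tests whether the genotypes answered LPS to a different degree. It was negative for all 9 genes, from -0.01 for Ccl12 to -1.04 for Ccl3, with a median of -0.41 against 0.0088 over all probe sets. None met the cut-off (1.34% of probe sets as higher and 2.30% as lower), none had an unadjusted p under 0.05, and by an adjusted p 0% passed (0 of 21218, with 1069 at an unadjusted p under 0.05). For Ccl3 the interval was -2.16 to 0.09 (standard error 0.47, adjusted p = 0.913), and for Cxcl10 it was -2.18 to 0.73. The members varied together within groups, with r from 0.43 for Cxcl9 and Ccl12 to 0.98 for Cxcl10 and Ccl4. Their 9 signs, here and in the other tallies of signs, are thus not separate results. Without CCSP-p52 LPS pool 1 the difference was -1.53 for Ccl3, -1.43 for Cxcl10 and -0.999 for Cxcl9, and without CCSP-p52 LPS pool 2 it was -0.54, -0.0165 and -0.20, with the median over the 9 at 0.22 and 6 genes above 0. Without WT LPS pool 2 it lay between -1.25 for Ccl3 and -0.46 for Ccr2, with none at the cut-off. The interval reached below -1 for all 9 genes, and above 1 as well for Cxcl11, Ccl2, Ccl7, Ccl12 and Ccl4. With the replicate block Cxcl9 and Ccl3 met the cut-off as lower (2.69% of probe sets did), and without CCSP-p52 LPS pool 1, Cxcl9, Cxcl10, Cxcl11, Ccl3 and Ccl4 did (6.88%). The adjusted p with the block was 0.727 for both, in a range over all alternatives of 0.211 to 1.00 for Cxcl9 and 0.133 to 1.00 for Ccl3.

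Among LPS-treated mice the 2 pools of a group differed more, in the median over the 9 genes, than the genotypes did. The first is a difference between single arrays, the second one between means of 2 arrays, which vary less. In both LPS groups, pool 1 exceeded pool 2 for 9 of 9 genes, where 35.6% of probe sets did so. The median difference over the 9 was 0.66 in WT LPS and 1.00 in CCSP-p52 LPS, against 0.03 and 0.01 over all probe sets, and 0.15 and 0.23 in WT dox and CCSP-p52 dox. The CXCR3 ligands and the CCR2 ligands differed in which group spread more. Cxcl9, Cxcl10 and Cxcl11 spread by 0.80, 1.42 and 1.81 in CCSP-p52 LPS and by 0.10, 0.66 and 0.27 in WT LPS. Ccl2, Ccl7 and Ccl12 spread by 1.12, 0.82 and 0.80 in CCSP-p52 LPS and by 1.33, 1.29 and 1.02 in WT LPS. Ccl4 had the widest spread of the 9 in CCSP-p52 LPS, at 1.91, and one of 1.16 in WT LPS, where Ccl2 and Ccl7 spread more. With 2 pools a group, the spread itself was not tested.

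**Figure D4:**
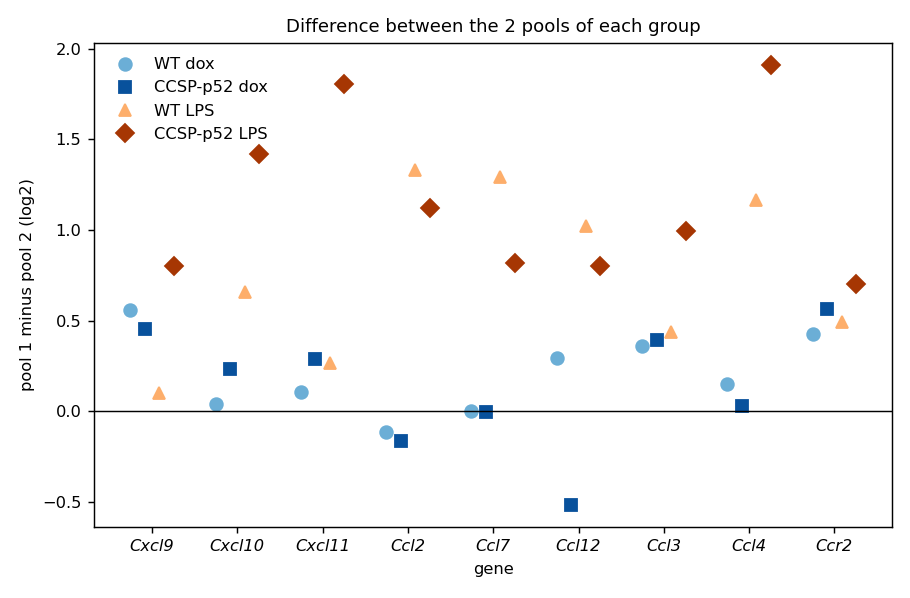
Difference of pool 1 minus pool 2 (log2, vertical axis) within each of the 4 groups for the 9 genes. All triangles and diamonds, the LPS groups, lie above 0, and the dox groups lie between -0.52 and 0.57.

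Marker lists of other cells also differed between pools, in part on dox as well. The median of pool 1 minus pool 2 was 0.98 over 10 monocyte and macrophage markers, 0.62 over 13 T and NK cell markers and -0.79 over 6 endothelial markers in CCSP-p52 LPS. In WT LPS the same medians were 0.16, 0.57 and -0.17, and that of the muscle and squamous genes was -3.79. On dox they were 0.24, 0.80 and -0.0567 in WT and 0.22, 0.30 and 0.0168 in CCSP-p52, so that the T and NK cell markers differed most between the WT dox pools. The mean log2 value of the T and NK cell markers was 7.32 to 8.02 on the dox arrays and 7.89 to 8.62 on the LPS arrays. That of the endothelial markers was 12.40 to 12.54 on the dox arrays and 11.21 to 12.02 on the LPS arrays. Their part in the spread of the chemokines was not tested.

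The rest of the CC chemokine family rose in part. Of 14 other CC chemokines measured, 8 passed as higher with LPS, none as lower and 6 did not pass. Ccl9 rose by 2.03 (standard error 0.13), Ccl8 by 2.74 (standard error 0.22) and Ccl19, a lymphoid chemokine, by 0.98 (standard error 0.08). Of 16 other chemokine receptors 5 passed as higher, 1 as lower and 10 did not pass. Cxcr2, which binds the neutrophil-attracting CXC chemokines, rose by 3.75 (standard error 0.19), Ccr1, a receptor of CCL3 and CCL7, by 3.23 (standard error 0.27) and Cxcr6 by 1.06 (standard error 0.21). Cxcr3, the receptor of CXCL9, CXCL10 and CXCL11, read 7.45 to 7.73 on the dox arrays and 7.68 to 8.10 on the LPS arrays, a logFC of 0.27 (standard error 0.11, adjusted p = 0.0891). Of 4 atypical receptors, which bind chemokines without the usual signalling, Ackr1 rose by 1.66 and Ccrl2 by 1.05, and the other 2 did not pass. None of these 34 genes met the cut-off for p52 in either LPS state or over both.

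**Figure D5:**
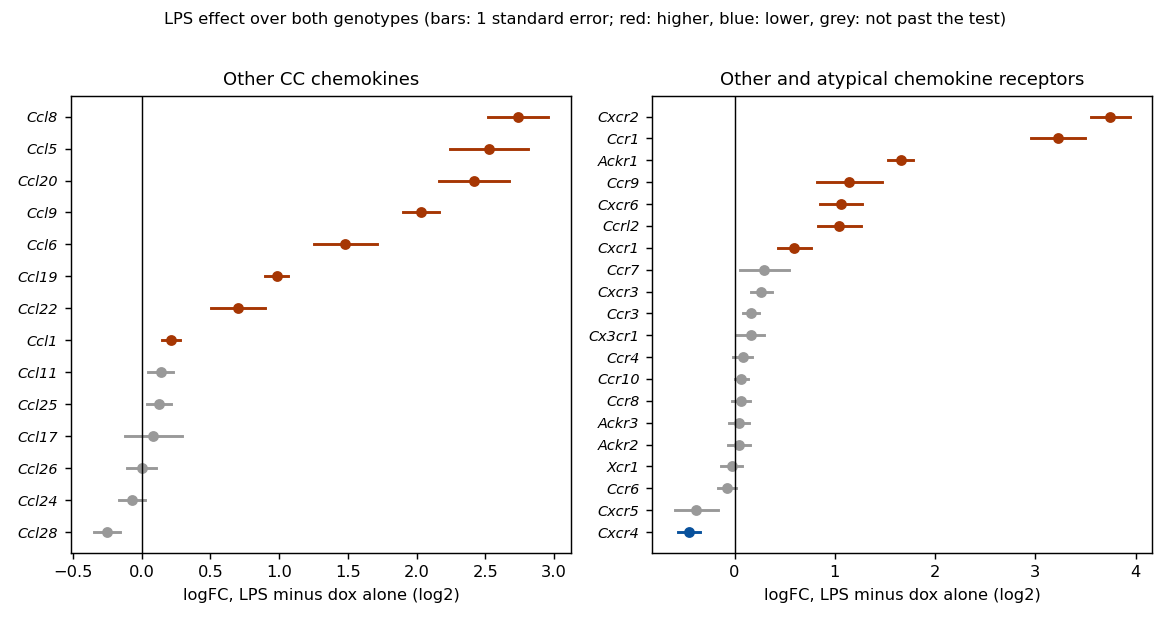
LPS effect over both genotypes (logFC, log2, horizontal axis) of 14 other CC chemokines and of 20 other and atypical chemokine receptors, with bars of 1 standard error, red where higher and blue where lower at an adjusted p under 0.05. Ccl8 leads the chemokines and Cxcr2 the receptors, and Cxcr4 is the single gene that passed as lower.

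Of 9 genes of interferon gamma signalling measured, which regulates the CXCR3 ligands, 6 passed as higher with LPS. Ifng itself read 6.38 to 6.66 on the dox arrays and 8.64 to 10.35 on the LPS arrays, a logFC of 3.08 (standard error 0.33). CCSP-p52 LPS pool 2 was the lowest LPS array for Ifng, as for Cxcl9, Cxcl10 and Cxcl11. It was also the lowest for Ccl3, Ccl4, Ccr2, Cd14 and Itgam, so this order was not particular to the CXCR3 ligands. Ccl2, Ccl7 and Ccl12 were lowest in WT LPS pool 2. The transcription factor genes Irf1 and Irf8 rose by 1.38 and 1.27. Of 8 genes of type I interferon signalling, 4 passed as higher, among them Irf7 by 2.76, Stat2 by 1.17 and Irf9 by 0.63, while Ifnb1 did not pass (0.10, adjusted p = 0.628). Among 13 markers of T and NK cells, which carry CXCR3 when activated, 6 rose, with the cytotoxic granule genes Gzmb, Gzma and Nkg7 at 1.74, 1.31 and 1.55. The T cell receptor complex genes Cd3d, Cd3e and Cd3g did not pass (-0.04, 0.17 and 0.18). For p52, 0 of these 30 genes met the cut-off in either LPS state or over both, and Ifnb1 met it as lower for the difference of p52 effects between LPS states (-0.57, standard error 0.23, adjusted p = 0.913).

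In genome order of protein-coding genes (RefSeq, GRCm38.p6), LPS effects differed between neighbouring genes. On chromosome 11, Ccl2 and Ccl7 are followed by Ccl11 (logFC 0.14, adjusted p = 0.28), an eosinophil chemokine, then by Ccl12 at 1.40, Ccl8 at 2.74 and Ccl1 at 0.21. Elsewhere on chromosome 11, Ccl5 at 2.53, Ccl9 at 2.03 and Ccl6 at 1.48 precede Ccl3 and Ccl4, and Wfdc17 at 4.15, Wfdc18 at 1.51 and Wfdc21 at 1.74 follow, all higher at an adjusted p under 0.05. On chromosome 5, Art3 (-0.56, adjusted p = 0.0601) lies between Cxcl9 and Cxcl10, with Sdad1 (0.30) before and Nup54 (0.16) after them. None of these 3 passed. Cxcl11 was not placed in this order, so its position is not given and Nup54 need not lie directly after Cxcl10. On chromosome 9, Ccr1 at 3.23 passed, whereas Ccr1l1 at 0.10 and Ccr3 at 0.17, which lie between Ccr1 and Ccr2, did not.

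The genes most like the members across the 8 arrays were sought among the 3114 to 3118 genes that ranged over at least 1 on the log2 scale. For the mean of the 3 CXCR3 ligands they were Il1rn, the interleukin 1 receptor antagonist (Pearson's r = 0.999), Slc7a11 (r = 0.999) and Cd14, a co-receptor for LPS (r = 0.999). For the mean of the 5 CC chemokines they were Sbno2, Cstdc4 and Myd88 (r = 0.998, 0.997 and 0.997), and for Ccr2 Cyfip2, Nabp1 and Cd300ld (r = 0.980, 0.978 and 0.978). These are descriptions over 8 arrays that fall into LPS and dox clusters. An r above 0.95 was found with 647 genes for the CXCR3 ligands, 722 for the CC chemokines and 71 for Ccr2.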

How the data were processed

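Whole lung RNA of 8 pools was hybridised to Affymetrix Mouse Gene ST arrays (the 1.0 version, per the labels). The deposited values are log2 signals that the authors made by RMA, which subtracts background, equalises the arrays' distributions and summarises each probe set, so overall RNA differences between lungs are removed. The submitters' processing notes name RMA and limma 3.20.8. Scanner files were not analysed here, so detection above background is unknown, and the number of arrays limits the precision.

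Of 35556 probe sets, the platform's gene table gave 21218 exactly 1 symbol, 1881 several and 12457 none. Whether that table is of the same array version was not settled. Only the 21218 were tested, and a gene took its probe set with the highest mean. There were no columns left unused and no pair of identical arrays. R 4.3.3 with limma 3.58.1 fitted linear models with empirical Bayes moderation, and Benjamini-Hochberg adjustment ran over all 21218. The additive model follows the study's description of p52 and LPS factors. The logFC of 0.41 for p52 is the study's, which considered increases only. The p limit of 0.05, both directions and the use for each p52 comparison were choices made here. For LPS a call is an adjusted p under 0.05. A model with 4 group means gave the other comparisons. The additive model was tested on simulated data, for the LPS effect and the p52 effect, with pools that varied independently. The other comparisons and fits were not tested in this way.

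Once group means were subtracted, arrays that bear the same pool number varied together, with r of 0.14 to 0.35 in each of 6 pairings of groups. The number was therefore used as a pairing in the replicate block, on the ground of the data only. The main fits did not use it. All arrays were, per the methods, processed together. Alternatives were other probe sets, moderation, array weights, renewed quantile normalization, the replicate block, separate fits, a stricter call and each array left out.

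The 9 members and the gene lists were chosen with earlier results of these data known. Named by rule were the members, Nfkb2, up to 3 called genes of each list by p and the 3 most alike genes by Pearson's r. Up to 3 protein-coding genome neighbours on each side were named too. Cxcr3, Ifnb1 and the Cd3 genes, and others in the plots, were named after their values were seen. Some other genes of the lists, among them Ly6c2, Ly6g, Ear2, Ackr4, Ccdc39 and Ccl27a, were not analysed here. Promoter windows of 250 bases came from RefSeq (GRCm38.p6) for 5 of 9 members, and Cxcl11, Ccl2, Ccl7 and Ccl4 were not in that table.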

Additional observations from a re-analysis of the deposited data

How the results depend on the processing

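The LPS effect over both genotypes was called as higher for all genes tested under every alternative fit, which was 9 of 9 except where only probe sets with a mean above the median were kept (7 of 7, without Ccl12 and Ccl4). Where a logFC of at least 1 was asked as well, 8 were called. No LPS effect changed sign. The p52 comparisons were less stable, with counts of members at the cut-off moving from 0. With array weights the counts were 2 over both LPS states, 1 without LPS and 1 for the difference of p52 effects. The replicate block gave 1 over both LPS states, 1 without LPS, 1 with LPS and 2 for the difference, and changed no sign. With both second LPS pools left out, 1 gene was at the cut-off without LPS and 2 for the difference. In the fit of the 4 arrays without LPS alone, 1 was. That stricter call left each count within 1.5 times of that reported. Beyond the main fit, the replicate block and some fits that left out 1 array, the share of all probe sets called was not computed. The other counts therefore have no background beside them, and the cause of these changes was not tested.

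Leaving out 1 array at a time, the count of members called ranged from 2 to 9 for LPS in CCSP-p52, from 0 to 1 for p52 over both LPS states and without LPS, and from 0 to 5 for p52 with LPS and for the difference. Over both LPS states, the p52 effect ranged from -0.10 to 0.29 for Cxcl9, -0.32 to 0.25 for Cxcl10, -0.52 to 0.20 for Cxcl11, -0.16 to 0.37 for Ccl2, -0.18 to 0.33 for Ccl7, -0.0908 to 0.32 for Ccl12, -0.0535 to 0.43 for Ccl3 and -0.69 to 0.0756 for Ccl4. Without LPS it ranged from -0.14 to 0.15 for Cxcl11 and -0.14 to 0.37 for Ccl12. With LPS it ranged from -0.63 to 0.18 for Cxcl9, -1.18 to 0.24 for Cxcl10, -1.31 to 0.49 for Cxcl11, -0.71 to 0.62 for Ccl2, -0.69 to 0.61 for Ccl7, -0.40 to 0.62 for Ccl12, -0.89 to 0.11 for Ccl3 and -1.53 to 0.38 for Ccl4. The difference ranged from -1.32 to 0.49 for Cxcl11, -0.92 to 0.41 for Ccl2, -0.84 to 0.46 for Ccl7, -0.52 to 0.51 for Ccl12, -1.40 to 0.51 for Ccl4 and -0.57 to 0.13 for Ccr2. For LPS in WT, from 6 to 9 members were called. The lone pool left in a group was taken to vary like the other groups. The share of all probe sets called was computed for only some of these fits.

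Other signs turned as follows. Array weights put the p52 effect over both LPS states at 0.24 for Cxcl10, 0.10 for Cxcl11 and -0.043 for Ccl12. Renewed quantile normalization put Cxcl11 without LPS at -0.0196 and the difference of Ccl12 at 0.10. With both second LPS pools left out, Cxcl10 and Cxcl11 over both LPS states were at 0.14 and 0.12, Cxcl9, Cxcl11 and Ccl12 with LPS at 0.13, 0.36 and -0.0023, and the difference of Cxcl11 at 0.36. With 2 pools a group, differences of the size seen between pools limit what can be told of p52.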

Other observations

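Beside the chemokines, LPS changed markers of several cell types in whole lung. All 9 neutrophil genes measured rose (median logFC 3.52), among them S100a9 by 3.52, Retnlg by 4.0 and S100a8 by 4.65, and their mean log2 value was 6.99 to 7.54 on the dox arrays and 10.25 to 10.64 on the LPS arrays. Of 10 monocyte and macrophage genes Cd14 rose by 4.0, C1qa by 1.13 and F13a1 by 2.04. Of 7 alveolar macrophage genes 3 rose, Chil3 by 3.22, Marco by 0.94 and Itgax by 0.90, and 4 did not pass.

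Markers of structural cells are given beside the 20.2% of all probe sets that passed as lower. Of 6 endothelial genes 5 fell, with Kdr at -1.42, Tek at -1.42 and Cdh5 at -0.47. Of 8 alveolar epithelial genes 4 fell, with Ager at -0.75, Hopx at -0.83 and Abca3 at -0.51. Of 7 club and ciliated cell genes 2 fell, Scgb3a2 at -1.91 and Cyp2f2 at -1.05, and of 6 fibroblast genes Pdgfra at -0.37 and Col1a2 at -0.29. Among 7 dendritic cell genes 4 fell, with Cd209a at -2.81, Clec9a at -0.79 and Itgae at -0.31, while Siglech at 1.11 and Batf3 at 0.35 rose. None of the 8 muscle and squamous genes passed for LPS. No gene of these lists met the cut-off for p52 in either LPS state or over both.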
